A study of Mus musculus with 14 samples.

Results

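Gene expression was compared between fibroblasts carrying the TIN mutant of the naked mole rat (NMR) telomere protein TRF1 and fibroblasts carrying the unmutated NMR protein, both kept at atmospheric oxygen (normoxia). The comparison used the 2 samples labelled mutant TIN, normoxia and the 2 samples labelled wild type, normoxia, out of 14 samples in 7 groups, and tested 16157 of the 52636 genes in the deposited table. All 4 samples came from tMEF cells, transformed mouse embryonic fibroblasts in which NMR TRF1 or a mutant of it stands in for the mouse protein. The TIN mutant carries Ala105Thr. A GLAD mutant (Glu69Lys, Val70Ala and Ala75Thr) and a double mutant with the GLAD and TIN changes together, also in normoxia with 2 samples each, were used as further references. Cells of every group grew in DEM medium with 10% fetal calf serum, and RNA came from whole cultures. The labels do not say how the NMR protein was introduced, whether the mouse gene is still active, or whether each TRF1 form is 1 cell line. They also do not say whether samples A and B are separate cultures, so the p-values measure only the spread between these samples, which may be technical.

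The wild-type samples stand apart in their labels. Their data columns follow another naming scheme from the 12 mutant columns and contain the word Mouse, while their titles and genotype fields give NMR TRF1. Samples A and B of the wild type also differed more from each other than those of any other normoxia group, with a median absolute log2 difference of 0.203 per gene against 0.082 in the TIN mutant, 0.075 in GLAD and 0.076 in the double mutant. The naming scheme splits the samples exactly as wild type against mutant. A difference between sample batches and a difference between TRF1 genotypes therefore cannot be told apart in TIN against wild type. The differences of TIN from GLAD and from the double mutant, which use no wild-type sample, are given beside it for some lists and genes only. These 3 comparisons share the TIN samples.

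TRF1, encoded by Terf1, binds the double-stranded repeats of telomeres and is a core member of shelterin, the protein complex that keeps chromosome ends from being read as DNA breaks. TIN2, encoded by Tinf2, bridges TRF1 to TRF2, and TPP1 (encoded by Acd) and POT1 join through it. Interferon response genes belong to a different system. Cells that sense viral or misplaced self nucleic acid make type I interferon, and its receptor activates transcription factors, STAT2 and IRF9 among them, that bind a short DNA element, the interferon-stimulated response element (ISRE), in the promoters of antiviral genes.

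The largest coordinated change was a fall of the interferon response. All 46 listed interferon response genes were called lower in the TIN samples than in the wild type, with a median log2 difference of -4.41, against 28.9% of all genes called lower and a median of 0.025 over all genes. Their summed level was 1082 and 1090 CPM in the TIN samples and 12332 and 13195 CPM in the wild-type samples, a ratio of 11.8. The summed level was 11028 and 11220 CPM in GLAD and 12018 and 12193 CPM in the double mutant. Both TIN samples lay below both wild-type samples in all 46 genes, against 36.3% of all genes tested, and below all 6 other normoxia samples in all 46, against 17.3%. CPM are reads relative to a fixed library total, scaled here between samples by trimmed mean of M values (TMM), and a called gene has a Benjamini-Hochberg adjusted p under 0.05 in limma.

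**Figure D1:**
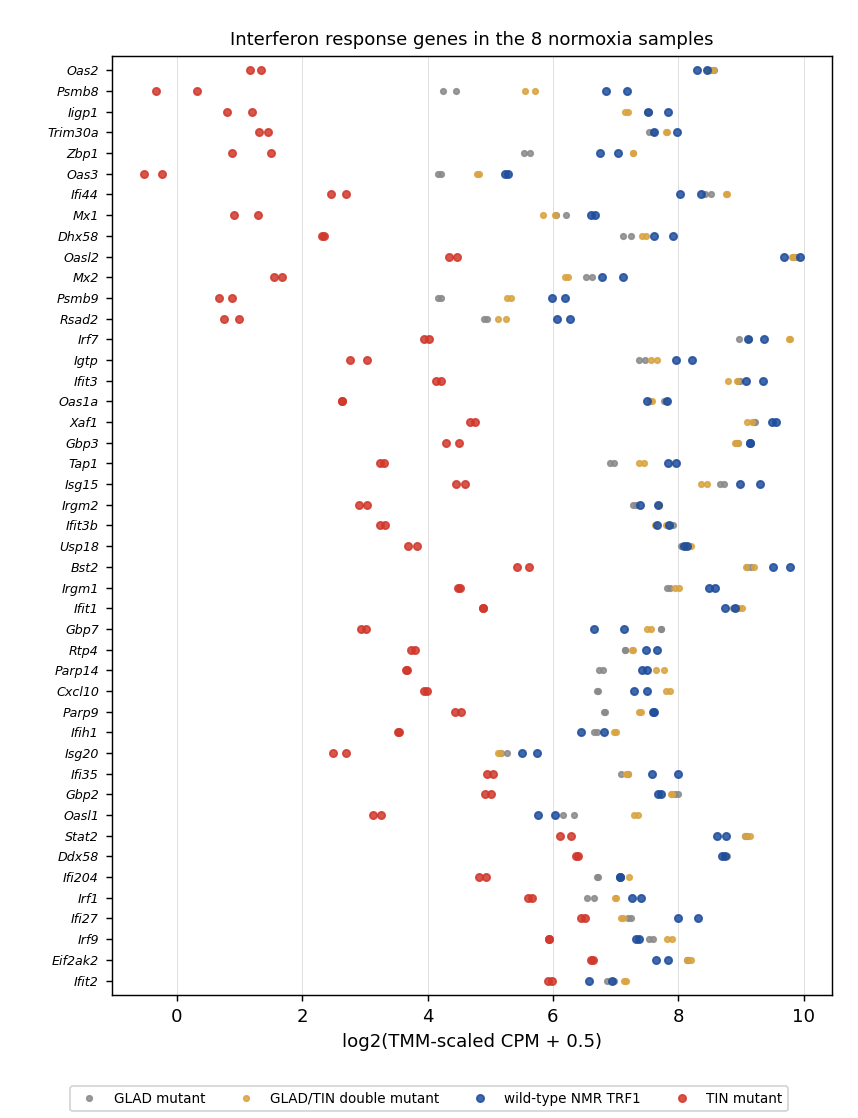
Levels of 45 of the 46 interferon response genes in the 8 normoxia samples, as log2(TMM-scaled CPM + 0.5). Each row is a gene and each point a sample, and in every row the 2 TIN samples (red) lie to the left of the 2 wild-type (blue), 2 GLAD (grey) and 2 double-mutant (yellow) samples.

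The promoters of several of these genes carry the letters of an ISRE. RefSeq promoter windows (mouse build GRCm38.p6, 250 bases before to 50 after a transcription start) were searched on both strands for GAAANNGAAA, and matches may overlap. Of the 46 interferon response genes 33 had a window, and 20 of these (60.6%) held a match, against 3.7% of the 10922 tested genes with a window and 3.99% of all 27025 genes with a window. Among tested genes with a window, a match was found in 34.8% of the 69 that fell by 4 or more on the log2 scale. The share was 13.8% of the 283 that fell by 2 to 4, 6.62% of the 680 that fell by 1 to 2, and 2.89% of the 9147 without a called change of at least 1. It was 3.75% of the 560 that rose by 1 to 2, 5.52% of the 163 that rose by 2 to 4, and 10% (2 of 20) of those that rose by 4 or more. These groups include the interferon response genes that have a window, so their shares are not independent of the 60.6% above. A match is only a description of the letters in the window. Psmb8, Ifi44 and Oasl2 had a window without a match and log2 differences of -7.01, -5.61 and -5.40. Eif2ak2 had a match and a log2 difference of -1.11. Below are the 250 bases before the start of the 4 interferon response genes with a match and the highest wild-type CPM, followed by Ifit2, the member that fell least and had no match. Each is given 5′ to 3′ on the gene's own strand with matches in capitals, and a match on the opposite strand appears as the reverse complement.
Bst2, minus strand, chr8:71537473-71537722: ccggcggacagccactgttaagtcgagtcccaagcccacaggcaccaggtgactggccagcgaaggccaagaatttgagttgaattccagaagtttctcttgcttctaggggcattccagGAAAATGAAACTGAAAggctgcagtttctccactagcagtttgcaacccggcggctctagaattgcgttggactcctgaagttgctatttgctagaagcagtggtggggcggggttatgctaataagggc
Ifit3, plus strand, chr19:34583279-34583528: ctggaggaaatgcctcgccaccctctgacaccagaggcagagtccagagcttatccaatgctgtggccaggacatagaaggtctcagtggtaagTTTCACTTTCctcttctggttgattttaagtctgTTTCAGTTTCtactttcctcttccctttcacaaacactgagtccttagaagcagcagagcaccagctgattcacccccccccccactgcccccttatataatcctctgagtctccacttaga
Isg15, minus strand, chr4:156200819-156201068: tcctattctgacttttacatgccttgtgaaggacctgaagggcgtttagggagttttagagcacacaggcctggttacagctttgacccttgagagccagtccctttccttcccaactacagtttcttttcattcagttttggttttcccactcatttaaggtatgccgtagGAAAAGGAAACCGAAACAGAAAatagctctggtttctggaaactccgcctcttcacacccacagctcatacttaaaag
Gbp3, plus strand, chr3:142559794-142560043: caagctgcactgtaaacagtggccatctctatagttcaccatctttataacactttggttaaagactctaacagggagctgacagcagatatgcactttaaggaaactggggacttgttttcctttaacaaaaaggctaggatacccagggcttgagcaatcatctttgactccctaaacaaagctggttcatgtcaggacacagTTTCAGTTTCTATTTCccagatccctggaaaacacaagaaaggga
Ifit2, plus strand, chr19:34550444-34550693: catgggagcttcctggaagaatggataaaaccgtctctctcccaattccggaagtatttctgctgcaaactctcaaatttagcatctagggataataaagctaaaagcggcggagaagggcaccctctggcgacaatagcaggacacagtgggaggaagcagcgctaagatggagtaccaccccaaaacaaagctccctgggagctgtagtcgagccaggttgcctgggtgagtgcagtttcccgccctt

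Bst2 (tetherin, which holds budding virus at the cell surface) was at 42.6 and 48.8 CPM in TIN, with 727 and 877 CPM in the wild type, a log2 difference of -4.12 ± 0.09 (SE, adjusted p = 1.3e-17). Isg15, a ubiquitin-like protein attached to other proteins during the response, was at 21.3 and 23.6 against 507 and 630 CPM, and fell by 4.62. Gbp3, a guanylate-binding GTPase, was at 19 and 22.1 against 565 and 564 CPM and fell by 4.75. Ifit3, an RNA-binding antiviral protein, was at 18 and 17.1 against 543 and 655 CPM and fell by 5.05. In all 4 genes the highest TIN sample was below the lowest wild-type sample by more than a factor of 10. Ifit2 was at 60.0 and 62.6 CPM in TIN against 123 and 94.7 CPM in the wild type, and fell by 0.81 ± 0.10 (adjusted p = 9.2e-07), again with no overlap.

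The first steps of the pathway were lower as well. Transcripts of Ifnb1, the interferon beta ligand, had no read in the TIN samples, which allows up to 0.207 and 0.245 CPM at these depths, and were at 0.859 and 0.923 CPM in the wild type, at least 3.87-fold higher against a floor of 3 reads a library. This floor covers counting error only. The receptor subunits also fell, Ifnar2 by 0.98 ± 0.09 (adjusted p = 1.3e-08; 29.5 and 28.6 CPM against 53.9 and 61.6) and Ifnar1 by 0.47 ± 0.07 (adjusted p = 1.1e-05; 83.8 and 81.6 CPM against 113 and 117).

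Of the 18 tested genes of cytosolic nucleic acid sensing, 12 fell, 3 rose and 3 did not pass the test, with a median of -0.55. Over all genes 28.9% fell and 31.4% rose against the wild type. The list shares Zbp1, Ifih1 and Ddx58 with the interferon response list. Zbp1, a sensor of left-handed nucleic acid, was at 2.34 and 1.34 CPM in TIN against 107 and 131 CPM in the wild type and fell by 5.69 ± 0.15 (adjusted p = 1.2e-16). The RNA sensors Ifih1 (MDA5) and Ddx58 (RIG-I) fell by 3.09 and 2.34, and Adar, which edits double-stranded RNA, fell by 2.30. The DNA sensor Cgas and its partner Tmem173 (STING) fell by less, 0.52 and 0.53. The 3 genes that rose were Mavs, the mitochondrial adaptor downstream of the RNA sensors (0.77 ± 0.10), and the RNase H2 subunits Rnaseh2b (0.45) and Rnaseh2c (0.42). The kinase gene Tbk1 was at 71.6 and 68.1 CPM against 72.3 and 70.3 CPM, with a log2 difference of -0.03 (adjusted p = 0.77), and Irf3, the factor that TBK1 phosphorylates, had a difference of 0.16 (adjusted p = 0.26).

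The transcription factors that carry the interferon signal were lower by unequal amounts. Irf7, the amplifier of the response, was at 14.8 and 15.8 CPM in TIN against 550 and 658 CPM in the wild type and fell by 5.25 ± 0.09 (adjusted p = 4.0e-19). Stat2 was at 78.0 and 68.7 against 391 and 433 CPM and fell by 2.48, Irf1 by 1.69 and Irf9 by 1.41. TIN and wild-type samples did not overlap in any of these 4 genes.

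Among direct antiviral effectors the largest fall was that of Oas2 (chromosome 5, 120730333 to 120749853), which makes the second messenger that activates RNase L. Oas2 was at 2.04 and 1.74 CPM in the TIN samples against 316 and 350 CPM in the wild-type samples, a log2 difference of -7.12 ± 0.08 (adjusted p = 3.0e-21). It was at 365 and 377 CPM in GLAD and at 376 and 356 CPM in the double mutant. The log2 differences were -5.63 for Oas3, -5.40 for Oasl2, -5.03 for Oas1a and -2.70 for Oasl1. The Mx GTPases, which block incoming viral particles, had log2 differences of -5.53 (Mx1, 1.94 and 1.39 against 96.9 and 101 CPM) and -5.34 (Mx2). Rsad2 (viperin) fell by 5.29 and Trim30a by 6.41. Usp18, which removes ISG15 and dampens the receptor, fell by 4.35. The effector with the smallest fall beside Ifit2 was Eif2ak2 (PKR), a kinase that stops translation, at 97.5 and 99.3 against 227 and 199 CPM, with a fall of 1.11 ± 0.08. Oas1a, Ifit3 and Ifit3b, the Mx and the Gbp genes have close copies, so reads may be divided among relatives.

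The interferon-inducible GTPases that attack vacuolar pathogens fell alongside. Iigp1 (chromosome 18) was at 1.25 and 1.79 CPM in TIN against 227 and 182 CPM in the wild type and fell by 6.67 ± 0.14. Gbp9 was at 0.798 and 0.498 against 121 and 90.3 CPM and fell by 6.53. Igtp fell by 5.19, Irgm2 by 4.56, Irgm1 by 4.03, Gbp7 by 3.92 and Gbp2 by 2.74.

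Several genes linked to peptide presentation by major histocompatibility complex class I were among those that fell. The immunoproteasome subunits Psmb8 and Psmb9, which trim peptides for class I, fell by 7.01 and 5.31, and Tap1, which carries the peptides into the endoplasmic reticulum, fell by 4.63. Psmb8 was at 0.299 and 0.747 CPM in TIN, at 114 and 144 CPM in the wild type, at 18.4 and 21.4 CPM in GLAD and at 46.5 and 51.9 CPM in the double mutant. Nlrc5, the transactivator of class I genes, was at 1.75 and 1.15 against 139 and 120 CPM and fell by 6.07 ± 0.13 (adjusted p = 6.0e-18). The class Ib gene H2-Q7 (chromosome 17) was at 0.449 and 0.249 against 186 and 211 CPM and fell by 7.88. H2-Q6 had 3 recovered reads in the TIN samples and 3246 in the wild-type samples, a ratio of 1100 with a 95% exact counting interval of 375 to 5310. H2-Q genes are near-identical copies, and their separate values are uncertain.

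The TIN samples at 1% oxygen were also low in these genes. Their levels are not part of the differences above, but all 14 samples entered the scaling, the filter and the shared estimate of spread. Both TIN hypoxia samples lay below all 4 GLAD and double-mutant hypoxia samples in all 46 interferon response genes, as they did in 32.1% of all genes tested (31.8% were above). The summed level of the 46 genes was 2171 and 2107 CPM in TIN, against 9278 and 9259 CPM in GLAD and 7579 and 7107 CPM in the double mutant.

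**Figure D2:**
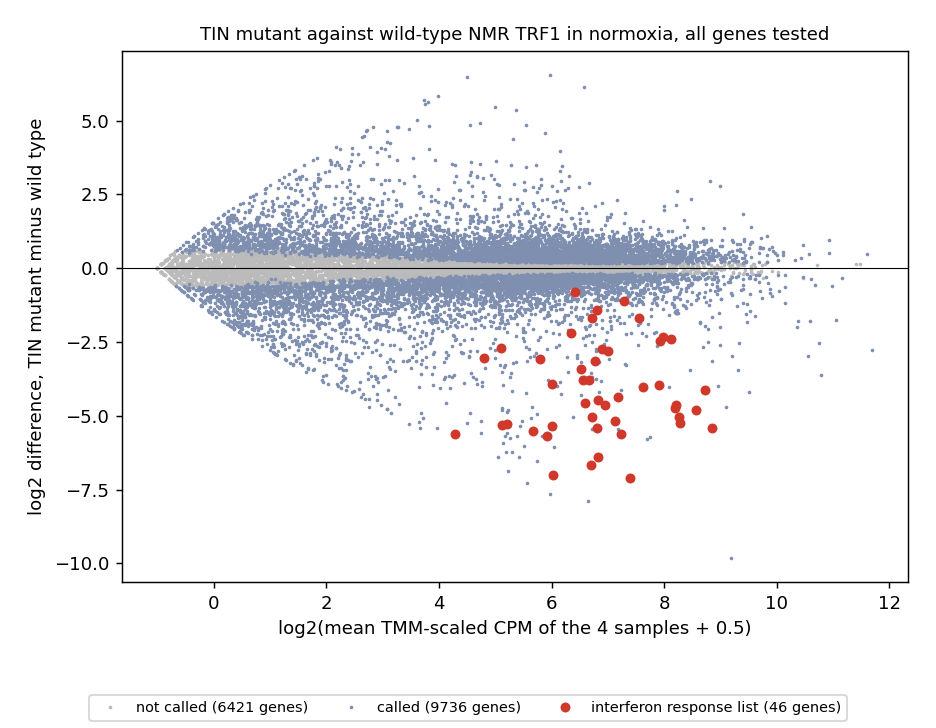
Log2 difference of TIN minus wild type (vertical) against log2 of the mean TMM-scaled CPM of the 4 samples plus 0.5 (horizontal) for the 16157 genes tested. Grey points were not called, blue points were called, and the 46 interferon response genes (red) all lie below 0, between -7.12 and -0.81.

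Over all genes the 2 groups differed widely. Of 16157 genes, 9736 (60.3%) were called, 5069 higher in TIN (31.4%) and 4667 lower (28.9%), and 1150 (7.12%) rose and 1607 (9.95%) fell by at least 2-fold. TIN differed from GLAD in 8381 genes (51.9%) and from the double mutant in 7815 (48.4%), so counts of called members below are read against these high backgrounds. With 2-fold as the limit, 454 genes (2.81%) were higher and 1433 (8.87%) lower than in GLAD, and 484 (3%) were higher and 1351 (8.36%) lower than in the double mutant. In a principal component analysis of the 8 normoxia samples 47.7% of the variance lay on the first component, where TIN scored 64.4 and 65.1, the wild type -55.8 and -62.1, GLAD -6.9 and -6.5 and the double mutant 1.3 and 0.6. Depth did not separate the groups. The reads recovered from the CPM steps came to 14487434 and 12246984 in TIN and 12473386 and 13933248 in the wild type, within the range of 11917019 to 15023478 over all 14 samples.

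Terf1, the gene the study altered (chromosome 1, 15805646 to 15844052), was higher in TIN. It was at 186 and 180 CPM in the TIN samples, 105 and 87.3 CPM in the wild type, 148 and 148 CPM in GLAD and 128 and 137 CPM in the double mutant. TIN was above all 6 other normoxia samples, with log2 differences of 0.93 ± 0.08 from the wild type (adjusted p = 1.7e-08), 0.30 from GLAD and 0.46 from the double mutant. Gene counts cannot tell mouse Terf1 from NMR sequence mapped to it, and cannot show the substitution, so this level checks none of the labels.

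Of 31 tested genes of shelterin and telomere maintenance, 17 rose, 5 fell and 9 did not pass the test, with a median of 0.28. The shares were above the 31.4% of all genes that rose and below the 28.9% that fell. The rises numbered 11 when only the 4 samples were fitted and 11 without TIN A. Among the other shelterin genes, Pot1b, a single-strand binding subunit, was at 12.8 and 12.3 against 7.88 and 5.74 CPM and rose by 0.85 ± 0.16, and Pot1a rose by 0.45. Tinf2, which encodes the bridge between TRF1 and TRF2, was at 49.1 and 43.8 against 35.6 and 39.6 CPM, a rise of 0.30 ± 0.10 (adjusted p = 0.011). Acd was at 106 and 102 against 74.0 and 94.3 CPM, a rise of 0.32 ± 0.09 (adjusted p = 0.0069). The calls of Tinf2 and Acd were lost when only the 4 samples were fitted, without TIN A and without wild-type A, and without wild-type A the Acd difference was 0.142. Terf2 and Terf2ip (RAP1) were not called, with differences of 0.04 (56.4 and 50.6 against 49.2 and 55 CPM) and -0.02.

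The 3 largest rises were those of a tankyrase gene and 2 genes of telomerase assembly. Dkc1, the pseudouridine synthase bound to telomerase RNA, was at 102 and 95.3 against 51.2 and 49.6 CPM and rose by 0.96 ± 0.09 (adjusted p = 1.4e-08), and its assembly factor Naf1 rose by 1.25. Tnks2, a tankyrase that releases TRF1 from telomeres, was at 264 and 282 against 128 and 94.0 CPM and rose by 1.31 ± 0.10. The DNA helicase gene Blm rose by 0.62 and the chromatin remodeller gene Atrx by 0.60. The 5 genes that fell were Ctc1 (by 0.65), Wrap53 (0.62), Smg6 (0.61), Daxx (0.46) and Ten1 (0.38). CTC1 and TEN1 belong to the complex that fills in the C-rich strand, and WRAP53 carries telomerase to Cajal bodies. All of these except Daxx lie on chromosome 11, where the median gene fell by 0.33. Tnks2 lies on chromosome 19, where the median gene rose by 0.39. The part of these chromosome shifts in the single genes was not tested. Tert and Terc were under the filter on low values, with at most 0.3 and 0.45 CPM in the 4 samples, and were not tested.

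Both gene lists also differed between TIN and the other mutants. In the interferon response list the medians were -4.41 against the wild type, -4.03 against GLAD and -4.23 against the double mutant. In the telomere list they were 0.28, 0.42 and 0.23, beside 0.025, 0.047 and 0.039 over all genes. The comparisons share the TIN samples.

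**Figure D3:**
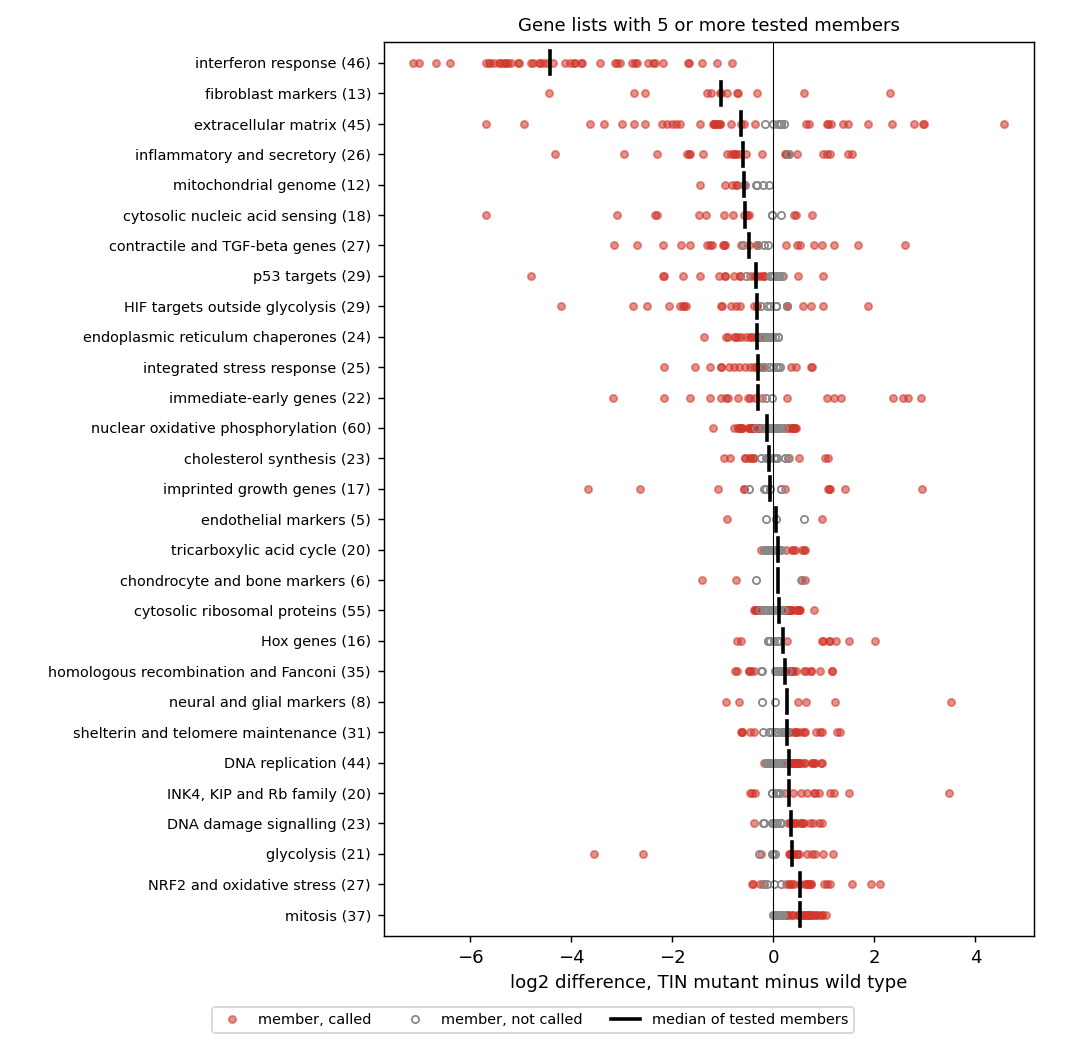
Log2 differences of TIN minus wild type for the tested members of each gene list with 5 or more tested members (number in brackets). Filled red points were called, open grey points were not, and the black bar is the list median, which runs from -4.41 for the interferon response list to 0.54 for mitosis.

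Genes of cell division and DNA replication were higher in TIN. Of 37 mitosis genes 27 rose and none fell, with a median of 0.54 and 10 that did not pass the test. Over all genes 31.4% rose and 28.9% fell against the wild type. Mki67, a marker of cycling cells, was at 775 and 772 CPM in TIN against 371 and 428 CPM in the wild type and rose by 0.95 ± 0.11 (adjusted p = 7.4e-07). Kif11, the motor that separates spindle poles, was at 253 and 262 against 133 and 117 CPM and rose by 1.04 ± 0.09. Ccnb1, the mitotic cyclin, rose by 0.95 and Prc1, a spindle midzone protein, by 0.90. DNA replication genes gave 26 rises and 1 fall among 44. Rrm2 and Rrm1, the subunits of ribonucleotide reductase, rose by 0.96 and 0.94, and the replicative helicase subunit gene Mcm4 and the helicase activation factor gene Mcm10 by 0.83 and 0.80. The gene that fell was Mcm6, at 389 and 389 against 435 and 454 CPM, by 0.19 (adjusted p = 0.025). This call was lost in the 4-sample fit, without a variance trend, and when either TIN sample or wild-type B was left out, with log2 differences between -0.193 and -0.161. In 23 of the 37 mitosis genes and 21 of the 44 replication genes both TIN samples were above all 6 other normoxia samples, as they were in 20% of all genes tested. For TIN above both wild-type samples the share over all genes was 38.9%.

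Repair genes moved less evenly against the wild type, where 31.4% of all genes rose and 28.9% fell. Genes of homologous recombination and the Fanconi pathway gave 18 rises and 6 falls among 35 (median 0.24), and of 23 DNA damage signalling genes 14 rose and 1, Rad1, fell (median 0.34). The Rad1 call was lost in the 4-sample fit, without TIN A and without wild-type B, and the 18 recombination rises became 10 in the 4-sample fit. Bard1, the partner of BRCA1, was at 47.3 and 45.6 against 20.7 and 20.2 CPM and rose by 1.16 ± 0.10, as did the nuclease gene Dna2, at 40.4 and 41.2 against 17.8 and 18.2 CPM. Topbp1, an activator of the ATR checkpoint kinase, rose by 0.96 and Mdc1, a scaffold at DNA breaks, by 0.90. Rad51b and Fancg fell by 0.77 and 0.72. From the double mutant, Topbp1 and Mdc1 differed by 0.167 and 0.045 (adjusted p = 0.10 and 0.67 in limma), while Bard1 and Dna2 were higher by 0.684 and 0.490. Of the 23 signalling genes 7 were higher and 1 lower in TIN than in the double mutant (median 0.140). For the 35 recombination and Fanconi genes these counts were 13 and 5 (median 0.177), beside 25.3% and 23.1% of all genes.

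Cell-cycle regulators changed on both sides of the G1 checkpoint. The D-type cyclin gene Ccnd2 was at 133 and 133 CPM in TIN against 12.1 and 10.9 CPM in the wild type and rose by 3.48 ± 0.07 (adjusted p = 5.3e-18). In GLAD and the double mutant Ccnd2 was at 153 and 150 and at 188 and 192 CPM, so the gap is between the wild type and all 3 mutants. Cdk6 and Ccnd1, which drive entry into S phase, also rose, the latter by 1.21. Cdkn2a, which encodes the inhibitors p16 and p19, was at 252 and 249 against 328 and 359 CPM and fell by 0.45, and Cdkn2b fell by 0.42. The inhibitor gene Cdkn1c rose by 1.12 at low levels, 1.35 and 1.15 against 0.202 and 0.410 CPM. Of the 20 genes of the INK4, KIP and Rb family and their cyclin partners, 11 rose and 3 fell, beside 31.4% and 28.9% of all genes.

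Targets of the tumour suppressor p53 were mostly lower in TIN, although Trp53 itself did not pass the test. Trp53 was at 248 and 229 against 216 and 240 CPM, with a log2 difference of 0.07 (adjusted p = 0.49). Of 29 tested targets 18 fell, 3 rose and 8 did not pass the test (median -0.33). Over all genes 28.9% fell and 31.4% rose against the wild type. Perp, a membrane protein of cell death and adhesion, was at 1.45 and 2.54 CPM in TIN against 68.0 and 66.0 CPM in the wild type and fell by 4.79 ± 0.16 (adjusted p = 8.2e-15). Btg2, an antiproliferative factor, fell by 2.18 and Pmaip1 (NOXA), a promoter of cell death, by 2.17. Cdkn1a, the cyclin-dependent kinase inhibitor p21, was at 32.3 and 27.5 against 96.8 and 111 CPM and fell by 1.78 ± 0.09 (adjusted p = 1.5e-12). In GLAD, Cdkn1a was at 217 and 214 CPM, and in the double mutant at 88.1 and 88.1 CPM. Mdm2, which marks p53 for degradation, differed little, at 113 and 106 against 125 and 124 CPM, a fall of 0.18 (adjusted p = 0.025) that was lost when only the 4 samples or the 8 normoxia samples were fitted and without TIN B (-0.142). The targets that rose were Sesn1 (0.98), Plk3 (0.49, a call lost in the 4-sample fit and without TIN A) and Ckap2 (0.19), and only 1 of the listed targets was called higher in the 4-sample fit. The median over the list was -0.98 against GLAD and -0.20 against the double mutant. In 16 of the 29 genes TIN was below all 6 other normoxia samples, against 17.3% of all genes.

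The 15 largest falls among genes with a mean of at least 5 CPM held 11 genes outside the interferon response list, among them Gbp9, Nlrc5, H2-Q6 and H2-Q7 described above. The largest was Igfbp2 (chromosome 1, 72824503 to 72852474), a secreted binder of insulin-like growth factors. Igfbp2 was at 0.997 and 0.598 CPM in TIN against 1084 and 1252 CPM in the wild type, a log2 difference of -9.83 ± 0.14 (adjusted p = 8.4e-20), and was at 30.6 and 31.6 CPM in GLAD and 14.6 and 14.2 CPM in the double mutant. The chemokine gene Cxcl15 had 2 recovered reads in TIN and 2430 in the wild type, a ratio of 1230 (counting interval 340 to 10200), and Megf6 had 3 and 1898. Megf6 was also low in GLAD (2.16 and 1.52 CPM) and in the double mutant (0.245 and 0.452 CPM). Mfap5, a microfibril protein, fell by 6.40. Eomes, a T-box transcription factor, was at 0.349 and 0.598 against 70.0 and 74.0 CPM and fell by 6.23, but was at 0.786 and 1.05 CPM in the double mutant. Apod, a secreted lipid carrier, was at 0.299 and 0.249 CPM in TIN against 54.7 and 75.2 CPM in the wild type, 73.0 and 84.3 CPM in GLAD and 97.7 and 101 CPM in the double mutant. Outside these 15, the growth factor gene Igf2 fell by 3.67, at 1.89 and 2.14 against 33.7 and 29.5 CPM.

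The largest rises were in genes at low levels in the wild type. Syt7 (chromosome 19, 10389090 to 10453180), a calcium sensor of vesicle fusion, was at 127 and 119 CPM in TIN against 1.01 and 0.667 CPM in the wild type and rose by 6.54 ± 0.13 (adjusted p = 3.2e-18). Hey1, a repressor downstream of Notch, was at 187 and 190 against 2.68 and 1.74 CPM and rose by 6.15 ± 0.14. Gpr149 had no read in the wild type and 1186 in TIN, at least 195-fold higher against a floor of 3 reads a library, and Dynap was at least 113-fold higher. Itga2, the collagen-binding integrin subunit, was at 22.9 and 23.5 against 0.202 and 0.256 CPM, and Igfbp6 was at 60.7 and 62.9 against 0.606 and 1.28 CPM.

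Some of these rises were common to other mutants and some were not. Gpr149 was at 42.1 and 46.7 CPM in TIN, 39.7 and 38.3 CPM in the double mutant and 1.06 and 0.881 CPM in GLAD, and TIN and the double mutant differed by 0.18 ± 0.16 (adjusted p = 0.36). Rgs17, a brake on G-protein signalling, was likewise at 17.8 and 18.3 CPM in TIN and 15.7 and 14.1 CPM in the double mutant, against 2.11 and 1.91 CPM in GLAD. Dynap was at 26.0 and 25.2 CPM in TIN and at most 0.625 CPM in GLAD and the double mutant. Unc80, a subunit of a sodium leak channel, was at 25.8 and 28.0 CPM in TIN, 4.22 and 3.06 CPM in the double mutant and 0.144 and 0.294 CPM in GLAD.

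**Figure D4:**
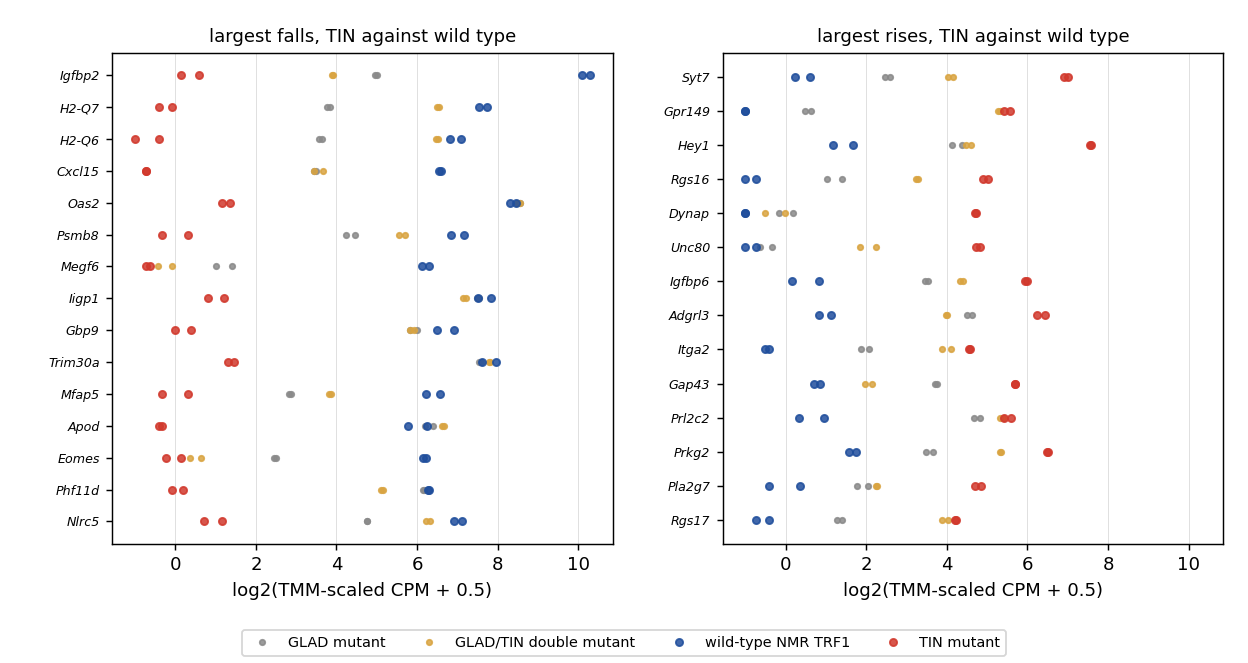
Levels of the 15 genes with the largest fall (left) and 14 of the 15 with the largest rise (right) in TIN against wild type, as log2(TMM-scaled CPM + 0.5), in the 8 normoxia samples. GLAD (grey) and double-mutant (yellow) samples often lie between TIN (red) and wild type (blue), while for Oas2, Iigp1, Trim30a and Apod they lie with the wild type.

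Extracellular matrix genes changed in both directions, with more falls than rises. Of 45 tested genes 25 fell, 13 rose and 7 did not pass the test, with a median of -0.63. The share that fell was above the 28.9% of all genes, while the share that rose was below the 31.4% of all genes. The fibril collagen genes Col1a1 and Col1a2 were at 899 and 804 against 5481 and 6083 CPM and at 517 and 487 against 2862 and 2995 CPM, falls of 2.76 ± 0.11 and 2.54 ± 0.08. Thbs1, an adhesive glycoprotein that activates latent TGF-beta, was at 261 and 264 against 3668 and 2879 CPM and fell by 3.63 ± 0.13. Col11a1 fell by 5.68, Ogn by 4.94 and Postn by 3.36. The rises were led by the proteoglycan gene Vcan, at 110 and 115 against 5.05 and 3.54 CPM (4.58 ± 0.12), the collagenase gene Mmp13 (2.98), Col6a3 (2.96), Spp1, which encodes osteopontin (2.78), and the basement membrane collagen gene Col4a1 (2.36). Vcan was at 162 and 161 CPM in GLAD and 162 and 203 CPM in the double mutant. Thbs1 was at 567 and 585 CPM in GLAD and 231 and 240 CPM in the double mutant. Its difference between TIN and the double mutant was 0.16 (adjusted p = 0.35 in limma).

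The cells kept fibroblast genes at unequal levels. Of 13 tested fibroblast markers 11 fell and 2 rose (median -1.03), beside 28.9% and 31.4% of all genes. The summed level of all 15 listed was 5900 and 5908 deposited CPM in TIN against 14597 and 15113 CPM in the wild type. Pdgfrb, a growth factor receptor of mesenchymal cells, was at 192 and 193 against 451 and 457 CPM and fell by 1.24, Twist1 fell by 1.31, and Twist2 was at 95.9 and 91.1 against 16.8 and 20.6 CPM and rose by 2.30. Dpt had 2 reads in TIN and 324 in the wild type. Thy1 was at or under 0.15 CPM and Fap at or under 0.4 CPM in all 4 samples. The contractile and TGF-beta genes gave 15 falls and 8 rises among 27 (median -0.48), with Myl9, a myosin light chain, at 1.25 and 1.39 against 14 and 17.5 CPM and Tgfbi at 116 and 119 against 17 and 20.9 CPM. The share that rose was near the 31.4% of all genes that rose, and the share that fell was above 28.9%. Tgfbi was at 104 and 115 CPM in GLAD and 137 and 141 CPM in the double mutant. Against the double mutant, 13 of the 27 contractile and TGF-beta genes were higher in TIN and 6 lower (median 0.263), beside 25.3% and 23.1% of all genes. Against GLAD, 6 were higher and 13 lower (median -0.314), beside 28% and 23.9%. In these bulk samples fewer cells of a type and less RNA per cell cannot be told apart.

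Most markers of other cell types were low in all 4 samples (marker sums and markers under 1 CPM are in deposited CPM, before scaling). Of 13 epithelial markers 11 were under 1 CPM in all 4 samples (summed 9.15 to 9.64 CPM in TIN and 4.35 to 5.65 CPM in the wild type), with Krt8, Cdh1 and Epcam at or under 0.25 CPM. Krt19 was at 8.67 and 7.42 against 1.97 and 3.43 CPM and rose by 1.45, while Krt7 fell by 1.03. Of 11 endothelial markers 6 were under 1 CPM (14.9 to 17.5 and 13.3 to 14.7 CPM), with Emcn and Cldn5 at 0. Flt1 rose by 0.96 and Eng fell by 0.92. Of 11 myeloid markers 8 were under 1 CPM (32.7 to 35.2 and 39.3 to 51.1 CPM), with Adgre1, Tyrobp and Aif1 at 0, Ptprc at or under 0.1 CPM and Csf1r at 18.9 and 16.6 against 21.9 and 29.0 CPM. Muscle markers summed to at most 5.3 CPM, with Myod1 and Myf5 at 0, and 6 of 9 adipocyte markers were under 1 CPM, with Adipoq at 0. Adipocyte markers summed to 32.2 and 32.5 CPM in TIN and 19.8 and 26.4 CPM in the wild type. Pparg was at 15.5 and 13.7 against 4.64 and 4.56 CPM and rose by 1.56, and Cebpa rose by 0.815. Chondrocyte and bone markers summed to 94.6 to 104 CPM in TIN and 67.1 to 73.2 CPM in the wild type, with Ibsp at 0. Neural and glial markers summed to 362 to 369 CPM in TIN and 215 to 247 CPM in the wild type, mostly from Map2, with Dcx, Snap25 and Olig2 at 0. Sox2, a factor of neural progenitors and pluripotent cells, was at 36.8 and 33.5 against 3.18 and 2.15 CPM and rose by 3.51 ± 0.15.

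Inflammatory and growth-linked genes followed mixed courses. Of 26 tested inflammatory and secretory genes 15 fell and 9 rose (median -0.61, or -0.297 with a pseudocount of 2 CPM). Over all genes 28.9% fell and 31.4% rose, so the share of rises was near that background. Ccl5, a chemokine that is also interferon-inducible, was at 8.22 and 8.22 CPM in TIN against 153 and 195 CPM in the wild type and fell by 4.31 ± 0.10 (adjusted p = 3.3e-17). Saa3 and Lcn2, acute-phase genes, fell by 2.95 and 2.31, while in the double mutant Lcn2 was at 760 and 787 CPM against 5.88 and 5.98 CPM in TIN. Il11 and Il33 rose by 1.57 and 1.48, with no more than 5.08 CPM in any of the 4 samples. Immediate-early genes, switched on by growth factor signalling, gave 8 rises and 12 falls of 22, again with rises near the share over all genes. Dusp5 and Dusp6, feedback phosphatases of the ERK pathway, rose by 2.91 and 2.66, Fosl1 by 2.58 and Klf4 by 2.36, while Klf2 fell by 3.18 and Atf3 by 2.15. The median of the immediate-early list was -0.294 against the wild type. Against GLAD, 15 of its 22 genes were higher in TIN and 4 lower (median 0.790), beside 28% and 23.9% of all genes. Against the double mutant, 7 were higher and 9 lower (median -0.065), beside 25.3% and 23.1%.

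Against the wild type, glycolysis genes mostly rose, and other targets of hypoxia-inducible factor (HIF) mostly fell. Of 21 glycolysis genes 14 rose and 3 fell (median 0.38), whereas of 29 HIF targets outside glycolysis 6 rose and 16 fell (median -0.33). Over all genes 31.4% rose and 28.9% fell against the wild type. Ldha, which turns pyruvate into lactate, was at 798 and 812 against 427 and 481 CPM and rose by 0.83 ± 0.08, and the phosphofructokinase gene Pfkp rose by 1.17. Hk2 rose by 0.38 (adjusted p = 0.002), a call lost when only the 4 samples were fitted. Pfkfb3, the regulator of phosphofructokinase, was at 2.99 and 3.54 against 45.3 and 41.1 CPM and fell by 3.54, and the lactate exporter gene Slc16a3 fell by 2.58. Among HIF targets, Lox, a collagen crosslinking enzyme, was at 69.6 and 78.0 against 1637 and 1137 CPM and fell by 4.20 ± 0.12. Adm fell by 2.77 and Ndrg1 by 2.07. Car9, a carbonic anhydrase at the cell surface, was at 3.54 and 3.29 against 19.6 and 23.6 CPM and fell by 2.49. Vegfa was not called, at 43.7 and 43.0 against 42.7 and 40.9 CPM. In 14 of the 29 HIF targets TIN was below all 6 other normoxia samples, against 17.3% of all genes. Against the double mutant, 1 glycolysis gene was higher in TIN and 10 lower (median -0.194). Against GLAD, 12 were higher and 2 lower (median 0.322). Of all genes, 25.3% were higher and 23.1% lower than in the double mutant, and 28% and 23.9% than in GLAD. The double mutant itself had 16 glycolysis genes above the wild type and 2 below (median 0.664). For the HIF targets the medians of TIN were -0.237 against GLAD and -0.991 against the double mutant.

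Stress pathways were divided too, beside 31.4% of all genes that rose and 28.9% that fell against the wild type. Of 27 NRF2 and oxidative stress genes 19 rose and 4 fell (median 0.53), with 2 falls in the 4-sample fit or without wild-type B. Gclc, the rate-limiting enzyme of glutathione synthesis, was at 82.7 and 82.7 against 20.3 and 17.3 CPM and rose by 2.11 ± 0.10, Gsta4 rose by 1.92 and Nqo1, a quinone reductase, by 1.56. Endoplasmic reticulum chaperones showed 15 falls and no rise among 24 genes (median -0.32), led by Herpud1 (1.36) and P4hb (0.94), a protein disulfide isomerase at 644 and 679 against 1253 and 1289 CPM. Integrated stress response genes showed 15 falls and 4 rises among 25, with Ddit3 (CHOP) falling by 1.26 and Trib3 by 1.55. Against GLAD, 13 of these 25 genes were higher in TIN and 6 lower (median 0.260). Against the double mutant, 5 were higher and 16 lower (median -0.274). The shares of all genes called higher and lower were 28% and 23.9% against GLAD and 25.3% and 23.1% against the double mutant.

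Metabolic and ribosomal gene lists gave small differences from the wild type that depended on single libraries. Over all genes 31.4% rose and 28.9% fell against the wild type. The shares of all genes called higher and lower in TIN were 28% and 23.9% against GLAD. Against the double mutant these shares were 25.3% and 23.1%. Against the double mutant, 42 of 60 nuclear oxidative phosphorylation genes were higher in TIN and 1 lower (median 0.328). For cholesterol synthesis these counts were 22 and 0 of 23 (median 1.044). Against GLAD the counts were 24 and 1 (median 0.171) and 17 and 0 (median 0.336). Of 55 cytosolic ribosomal protein genes, 51 were higher and 0 lower in TIN than in GLAD (median 0.510). Against the double mutant, 40 of them were higher and 0 lower (median 0.307). In 22 of these 55 genes both TIN samples were above all 6 other normoxia samples, against 20% of all genes. The counts below are against the wild type. Of 60 nuclear oxidative phosphorylation genes 26 fell and 9 rose (median -0.12), but without wild-type B 15 fell and 15 rose and the median was 0.022. The median was -0.239 without TIN B and -0.296 without wild-type A, without TIN A 15 genes fell, and the 4-sample fit gave 14 falls and 4 rises. Of the 12 tested genes of the mitochondrial genome 7 fell and none rose (median -0.59), with 12 falls without TIN A, 1 without TIN B, 4 without wild-type B and 3 in the 4-sample fit. The median of the mitochondrial list was -1.031 without TIN A and -0.214 without TIN B, and its summed level was 7384 and 4552 CPM in TIN A and B against 7387 and 7887 CPM in the wild type. Cytosolic ribosomal protein genes gave 23 rises and 7 falls of 55, none past 2-fold, but 8 rises and 13 falls without wild-type A (median -0.016 against 0.113). The ribosomal list had 7 rises without TIN B, no fall without TIN A or without wild-type B, and 9 rises and no fall in the 4-sample fit. Tricarboxylic acid cycle genes gave 7 rises and 2 falls of 20, with 5 falls without wild-type A, 1 without TIN B or wild-type B, and none without TIN A or in the 4-sample fit. Cholesterol synthesis genes gave 4 rises and 8 falls of 23, with 7 rises without wild-type A and 2 in the 4-sample fit.

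Of 16 tested Hox genes, which record body position, 8 rose and 2 fell, beside 31.4% and 28.9% of all genes. Against the wild type the list median was 0.190 in TIN, 0.576 in GLAD and 0.285 in the double mutant. Against GLAD, 3 of these genes were higher in TIN and 2 lower (median 0.090), beside 28% and 23.9% of all genes. Against the double mutant, 7 were higher and 0 lower (median 0.329), beside 25.3% and 23.1%. Hoxd11 was at 49.3 and 50.8 against 11.7 and 12.2 CPM in the wild type and rose by 2.02 ± 0.10, and Hoxa10 fell by 0.71. In GLAD, Hoxd11 was at 37.3 and 43.0 CPM, and in the double mutant at 30.1 and 31.8 CPM. Of 17 imprinted growth genes 6 rose and 5 fell, shares near those over all genes (31.4% and 28.9%), with Peg10 at 128 and 125 against 18.2 and 14.0 CPM (a rise of 2.95 ± 0.11) and Mest falling by 2.63.

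All 4 tested genes of the Y chromosome list fell. Of the 8 genes tested on chromosome Y, which include these 4, 62.5% were called lower and 25% higher. Eif2s3y was at 19.6 and 19.1 CPM in TIN, 44.8 and 48.6 CPM in the wild type, 43.7 and 40.1 CPM in GLAD and 33.2 and 31.0 CPM in the double mutant, a fall of 1.25 ± 0.10 from the wild type (adjusted p = 7.4e-09). Ddx3y was at 14.4 and 18.8 against 54.8 and 30.5 CPM and fell by 1.29, and Kdm5d and Uty fell by 0.98 and 0.88. In all 4 genes the TIN samples were the lowest of the 8. Xist, the RNA of X inactivation, was at or under 0.3 deposited CPM in every normoxia sample.

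The differences also varied by chromosome. The median gene rose by 0.386 on chromosome 19, with 57.3% of 532 genes called higher, and by 0.224 on chromosome 7, 0.211 on chromosome 13 and 0.187 on chromosome 17. The median gene fell by 0.333 on chromosome 11, with 54.5% of 1278 genes called lower, by 0.285 on chromosome 18 and by 0.206 on chromosome 15. The signs on these 7 chromosomes were the same with unscaled CPM and with median-of-ratios scaling. On chromosome 11 the median was 0.023 against GLAD and -0.066 against the double mutant, and GLAD and the double mutant had medians of -0.360 and -0.288 against the wild type, with which all share the same 2 samples. On chromosome 19 the median was also positive against GLAD (0.228) and the double mutant (0.258). The interferon response genes Ifit1, Ifit3 and Ifit3b fell by 3.94, 5.05 and 4.47 on chromosome 19, where the median gene rose.

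**Figure D5:**
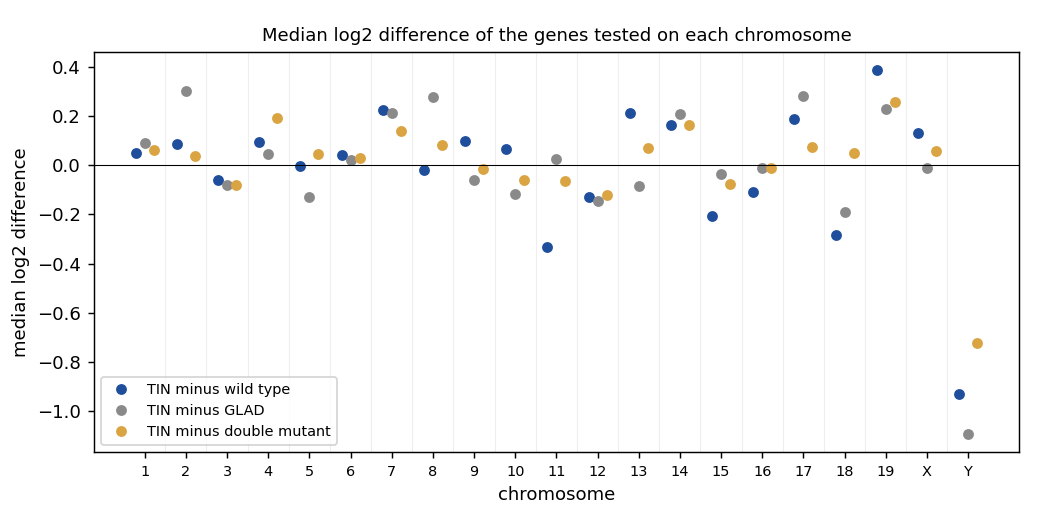
Median log2 difference of the genes tested on each nuclear chromosome, for TIN minus wild type (blue), TIN minus GLAD (grey) and TIN minus double mutant (yellow). Chromosome 19 is above 0 in all 3 comparisons, chromosome 11 is at -0.333 against the wild type only, and Y, with 8 genes tested, is below 0 in all 3.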

How the data were processed

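Bulk RNA-seq libraries were made from total RNA with a MicroElute extraction and TruSeq reagents and read on a NovaSeq 6000, per the labels' protocols. Per the submitters' processing notes, reads were handled with STAR and HTSeq, and the builds named are GRCm38.p4 and mm10. For program versions, annotation release and strand setting the sources give nothing, so sense and antisense reads may be mixed. The values are CPM deposited by the authors for 52636 Ensembl gene IDs, 52403 of which were matched to a symbol and position in GENCODE M21 (GRCm38). Each column sums to 1000001, and values move in steps from which reads per sample were estimated at 11917019 to 15023478.

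The CPM were scaled by TMM (trimming 30% of the log ratios, 5% of the levels), genes reaching 1 CPM in 2 or more of the 14 samples were kept, and log2(CPM + 0.5) was fitted with 7 group means in limma 3.58.1 (R 4.3.3), with an intensity trend, 7 residual and a median of 11.3 prior degrees of freedom. Fold changes are on this log2(CPM + 0.5) scale, which understates the change of low genes. Benjamini-Hochberg adjustment ran over all 16157 genes, and 0.05 was the threshold. Values after ± are standard errors from the spread pooled over all 7 groups. They may understate the spread of the wild-type samples, which differed most from each other. The fit was tested on simulated data. Planned count tests were not run, because the deposited values are CPM and the recovered reads did not meet the criterion for use as counts.

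Genes named are the 15 largest rises and 15 largest falls among called genes with a mean of at least 5 CPM and no overlap of the groups, up to 4 called members with the largest difference in each of 34 lists and up to 2 in the other direction, and a fixed set including Terf1, Tinf2, Acd and Cdkn1a. Further list members were named after their values were seen, to describe the roles in a pathway. The comparison, members and lists were chosen with earlier results of these data known. Samples A and B share a letter across groups, but same-letter samples did not deviate together (correlations -0.096 to 0.107), so no pairing was used. Alternatives changed the scaling, pseudocount, filter, samples fitted, replicate block, variance trend and samples left out, and an alternative without each sample's trend on transcript length and GC content was added after seeing the data. Values of 2 of the genes so chosen are not reported here.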

Additional observations from a re-analysis of the deposited data

Results flagged for a closer look

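Some genes differed from the wild type in opposite directions in TIN and in another mutant, with the difference between the mutants itself tested in limma. All of these comparisons with the wild type share its 2 samples. Cdkn1a fell by 1.78 in TIN and was higher by 1.05 in GLAD, so TIN minus GLAD was -2.83 (adjusted p = 1.7e-15). Mdm2 followed the same course, with TIN minus GLAD at -0.98 and TIN minus double mutant at -0.51. Car9 was lower in TIN and higher in both other mutants, with differences of -3.12 from GLAD and -3.16 from the double mutant. Apod differed by -7.01 from the double mutant, where it was 0.63 above the wild type. Tinf2 and Acd were each 0.59 higher in TIN than in GLAD, and Hk2 0.66 higher. Ddx3y was -1.85 from GLAD, with GLAD 0.56 above the wild type.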

How the results depend on the processing

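Over 15 alternatives the number of genes called between TIN and wild type ranged from 7490 (the 4 samples fitted alone, which held 76.7% of the calls in the same direction) to 10110 (length and GC trend removed), and from 8256 to 10055 when a single sample was left out. With a replicate block 9828 genes were called. With a pseudocount of 2 CPM, 731 genes rose by at least 2-fold against 1150. TIN minus GLAD then had 264 higher and 937 lower genes, and TIN minus double mutant 268 and 875. Of 190 called named genes, 19 lost the call under at least 1 alternative, 17 of them in the 4-sample fit, and none changed direction. Among them were Tinf2, Acd, Hk2, Mdm2, Plk3 and Mcm6. A sample left alone in its group was assumed to vary like the others. Count tests on recovered reads were not run. The 2 samples a group limit the precision, and levels under about 0.25 CPM rest on at most 3 reads.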
